A study of Zonotrichia albicollis with 38 samples.

Results

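The genes described here are 56 genes of the white-throated sparrow chromosome ZAL2 whose human counterparts lie together on chromosome arm 6q, in bands q21 to q23. They were chosen by position, but with earlier results of these data known, so no test was made over the list as a whole. The count table held 53 of the 56 among its 15111 genes, and CD164, MARCKS and ASF1A had no row in it. Messenger RNA was sequenced from punches of the hypothalamus (HYP) and of tissue that was mostly medial amygdala (MeA) from 19 wild adult males, taken in the territorial season on the day after a staged intrusion. There were 10 white-striped (WS) and 9 tan-striped (TS) birds, each gave 1 library per region, and the bird is the replicate throughout. Punches of a bird were pooled within a region, so a library is a mixture of cell types.

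White-striped birds carry 1 copy of ZAL2m, a rearranged form of chromosome ZAL2 with inversions, beside a standard copy, whereas tan-striped birds have only the standard form. The inverted and standard forms rarely recombine with each other, and the morphs differ in plumage, territorial aggression and parental care. The genes on this stretch have no single pathway in common. They include laminin chains and secreted modifiers of the matrix and of Wnt signalling, Src-related kinases, regulators of the actin skeleton, components of the secretory and lysosomal pathways, membrane transporters, and factors of transcription, DNA repair and RNA processing.

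In the gene table of a sparrow assembly, 55 of the 56 genes lay on 1 chromosome, numbered 3 there and taken here as ZAL2. MICAL1, an actin-oxidizing enzyme, was placed on chromosome 28 instead, which goes against its listing, and it was kept in all counts. The 55 genes formed 2 separate stretches with 842 genes between them. The shorter stretch held ATG5, PRDM1, PREP, BVES, LIN28B and HACE1. The longer one held 49 genes, 46 of them counted, from ENPP1 to PDSS2. Among the counted genes of the list, 24 overlapped another gene in the table, so that reads of the partners may not be separable. TRAPPC3L and FAM26E (now CALHM5) overlapped each other, as did KIAA1919 (now MFSD4B) and REV3L, SOBP and PDSS2, and SERINC1 and HSF2.

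Library totals ran from 7150476 to 14482856 counts. Markers of the hypothalamus summed to between 548.7 and 1037 CPM (counts scaled to library size) in the HYP libraries and to between 7.62 and 24.2 CPM in the MeA libraries, and 5 of 5 pallial markers measured were higher in MeA. The age classes in the labels were unevenly spread, since SY was given for 7 of 9 TS birds and ASY for 8 of 10 WS birds. The stage given was E for 6 of the TS and 8 of the WS birds. A gene was called when its adjusted p from edgeR's quasi-likelihood test, adjusted over all genes tested, was under 0.05, and log2 fold changes between morphs are WS over TS.

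In the hypothalamus, 9 of the 50 genes that passed the filter on low counts were called between the morphs, which is 18.0% of them against 0.796% of all 11930 genes tested. The genes higher in WS were KIAA1919, NUS1, ARHGAP18, AMD1 and HDDC2, and those lower in WS were TRAPPC3L, FAM26E, FIG4 and FRK. The 4 lower genes differed by 1.30-fold to 1.96-fold and the 5 higher ones by 1.13-fold to 1.29-fold. At an unadjusted p under 0.05 there were 22 genes (44.0%), 9 higher and 13 lower, against 7.59% of all genes. Among genes of the same chromosome outside the 2 stretches, 34.4% had such a p and 9.37% were called. The morphs' ranges did not overlap for KIAA1919, TRAPPC3L and FAM26E, a separation found in 0.268% of all genes. In bulk tissue, fewer cells of a type and less RNA per cell cannot be told apart. No marker of 9 cell type and region lists was called between the morphs in HYP, where 0.796% of all genes were. The summed levels of each list overlapped between the morphs, and the part of cell makeup in the morph differences was not tested.

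**Figure D1:**
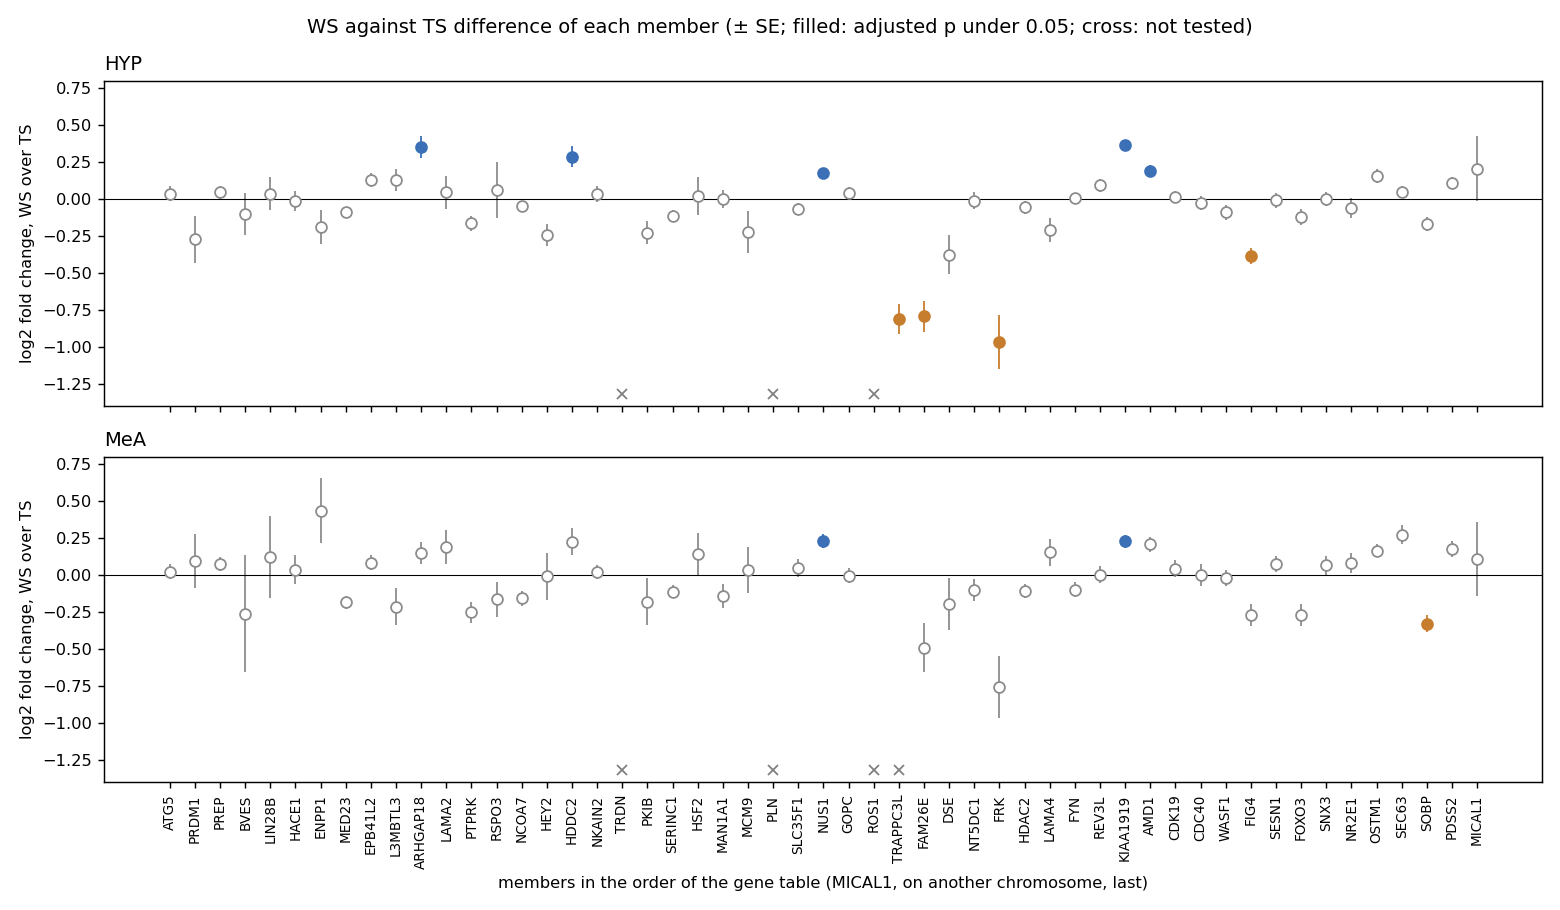
Fitted log2 fold change (WS over TS) of each counted gene of the list in HYP (top) and MeA (bottom), in the order of the gene table along the chromosome, with bars of 1 SE. Filled points passed an adjusted p of 0.05 (9 in HYP and 3 in MeA), open points did not, and crosses mark genes below the filter on low counts.

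TRAPPC3L, a relative of a subunit of the TRAPP complex that tethers transport vesicles, had a hypothalamic level of 5.50, 7.83 and 10.2 CPM (lowest, median and highest of 10) in WS and of 12.3, 13.8 and 15.0 CPM in the 9 TS birds. Every WS bird was thus below every TS bird, and the difference on the log2 scale was −0.81 ± 0.099 SE (edgeR adjusted p = 2.33e-05). FAM26E, a member of the CALHM family of large-pore channels, stood at 5.21, 6.99 and 8.17 CPM in WS against 8.45, 11.5 and 14.9 CPM in TS. Its ranges were also separate, though the gap between them was narrow (edgeR, log2 fold change −0.79 ± 0.11 SE, adjusted p = 7.97e-05). Because these genes overlap each other, their differences may not be independent measurements.

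FIG4 encodes the phosphatase that works with the kinase PIKfyve and the scaffold VAC14 to set the lipid composition of late endosomes. Its level was 34.2, 40.3 and 43.3 CPM in WS and 43.2, 52.8 and 57.3 CPM in TS, so that the ranges touched at their ends (edgeR, log2 fold change −0.38 ± 0.053 SE, adjusted p = 0.000124). FRK, a Src-related tyrosine kinase, was at a low level, with 1.05, 1.62 and 3.39 CPM in WS and 2.71, 3.17 and 4.57 CPM in TS. For FRK, 9 of 10 WS birds lay below all TS birds and 1 lay within their range (edgeR, log2 fold change −0.97 ± 0.18 SE, adjusted p = 0.00654). DSE and NT5DC1, members of the list, lie between FAM26E and FRK in chromosome order, and neither was called. DSE, the epimerase of dermatan sulfate, had a log2 fold change of −0.37 (edgeR adjusted p = 0.320) and NT5DC1 one of −0.0086 (edgeR adjusted p = 0.990).

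KIAA1919, a transporter of the major facilitator family, was measured at 94.7, 103.0 and 107.3 CPM in the hypothalamus of WS and at 74.3, 78.8 and 83.8 CPM in that of TS. All WS birds stood above all TS birds, and the difference on the log2 scale was 0.37 ± 0.034 SE (edgeR adjusted p = 4.00e-07), the lowest adjusted p of the list. Its overlapping neighbour REV3L, the catalytic subunit of a translesion DNA polymerase, had a log2 fold change of 0.10 (edgeR adjusted p = 0.614). NUS1, a subunit of the enzyme that makes the dolichol carrier for protein glycosylation, stood at 84.3, 91.3 and 97.3 CPM in WS and at 75.5, 81.1 and 85.4 CPM in TS. For NUS1, 9 of 10 WS birds exceeded every TS bird (edgeR, log2 fold change 0.18 ± 0.034 SE, adjusted p = 0.00588).

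ARHGAP18, a GTPase-activating protein for RhoA, had 35.3, 39.6 and 47.5 CPM in WS and 28.7, 31.2 and 43.2 CPM in TS. The highest TS value came from 1 bird, and the next TS bird was at 32.3 CPM (edgeR, log2 fold change 0.35 ± 0.076 SE, adjusted p = 0.0209). AMD1, the decarboxylase that commits S-adenosylmethionine to polyamine synthesis, was at 380.6, 417.1 and 459.9 CPM in WS and at 337.1, 362.6 and 408.7 CPM in TS (edgeR, log2 fold change 0.19 ± 0.042 SE, adjusted p = 0.0279). HDDC2, a nucleotide phosphohydrolase, was at 10.8, 11.8 and 12.7 CPM in WS and at 8.63, 9.32 and 11.4 CPM in TS (edgeR, log2 fold change 0.29 ± 0.068 SE, adjusted p = 0.0416). The ranges overlapped for these genes, although all 10 WS birds lay above the TS mean for each. The call of HDDC2 was lost in 16 of the 19 fits that left out 1 bird, with an adjusted p of up to 0.0898, and that of AMD1 in 11 of 19, with an adjusted p of up to 0.0642.

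OSTM1, SOBP and HEY2 had the lowest p-values among the genes not called in HYP. The first of them, a subunit of the lysosomal chloride transporter, averaged 135.3 ± 10.3 CPM in WS birds and 121.1 ± 7.54 CPM in TS birds (SD, n = 10 and 9, edgeR adjusted p = 0.141). SOBP, a zinc finger protein needed for inner ear development in the mouse, stood at 67.5 ± 3.98 and 75.7 ± 6.25 CPM (edgeR adjusted p = 0.152). HEY2, a transcriptional repressor that answers to Notch, stood at 16.5 ± 1.64 and 19.5 ± 2.25 CPM (edgeR adjusted p = 0.206).

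In the medial amygdala, 3 of the 49 genes tested were called, SOBP lower and KIAA1919 and NUS1 higher in WS. This is 6.12% of the list against 0.523% of all 11672 genes tested. Among genes of the same chromosome outside the 2 stretches it was 6.50%, so the list did not exceed its chromosome. SOBP was at 57.7, 63.8 and 72.9 CPM in WS and at 69.7, 82.4 and 92.2 CPM in TS, with 8 of 10 WS birds below every TS bird (edgeR, log2 fold change −0.33 ± 0.058 SE, adjusted p = 0.00547). KIAA1919 was at 82.6, 87.8 and 96.4 CPM in WS and at 68.6, 76.5 and 80.7 CPM in TS (edgeR, log2 fold change 0.23 ± 0.043 SE, adjusted p = 0.0103). NUS1 was at 66.7, 70.8 and 78.1 CPM in WS and at 53.4, 61.5 and 64.9 CPM in TS (edgeR, log2 fold change 0.23 ± 0.045 SE, adjusted p = 0.0146). For KIAA1919 and NUS1 every WS bird lay above every TS bird, a separation found in 0.223% of all genes.

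None of these 3 calls remained without the 4 MeA libraries at the ends of the first principal component of that region. Calls over all genes tested also fell, from 61 with all libraries to 30 without the 4. The libraries left out at the low end were of WS birds and those at the high end of TS birds. The edgeR adjusted p-values were then 0.0859 for SOBP, 0.0521 for KIAA1919 and 0.101 for NUS1. Their log2 fold changes were of about the same size (−0.31, 0.25 and 0.23). No such fit was made for HYP. With all libraries, 17 genes (34.7%) had an unadjusted p under 0.05, 7 higher and 10 lower, against 8.85% of all genes. Among genes of the same chromosome outside the 2 stretches the share was 32.0%, close to that of the list. DESeq2 called 8 genes of the list in MeA, adding AMD1, MED23, OSTM1, PTPRK and SEC63. It also called more genes over the whole table, 122 (0.864% of all genes given an adjusted p) where edgeR called 61. SEC63, which helps proteins into the endoplasmic reticulum, averaged 154.5 ± 18.1 CPM in WS birds and 128.0 ± 10.6 CPM in TS birds (SD, n = 10 and 9, edgeR adjusted p = 0.0716). AMD1 was at 533.3 ± 36.1 and 461.7 ± 36.8 CPM (edgeR adjusted p = 0.0780). MED23, a subunit of the Mediator complex that links transcription factors to RNA polymerase, was at 99.1 ± 6.47 and 112.7 ± 7.16 CPM (edgeR adjusted p = 0.0903). No cell type or region marker was called between the morphs in MeA, where edgeR called 0.523% of all genes.

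**Figure D2:**
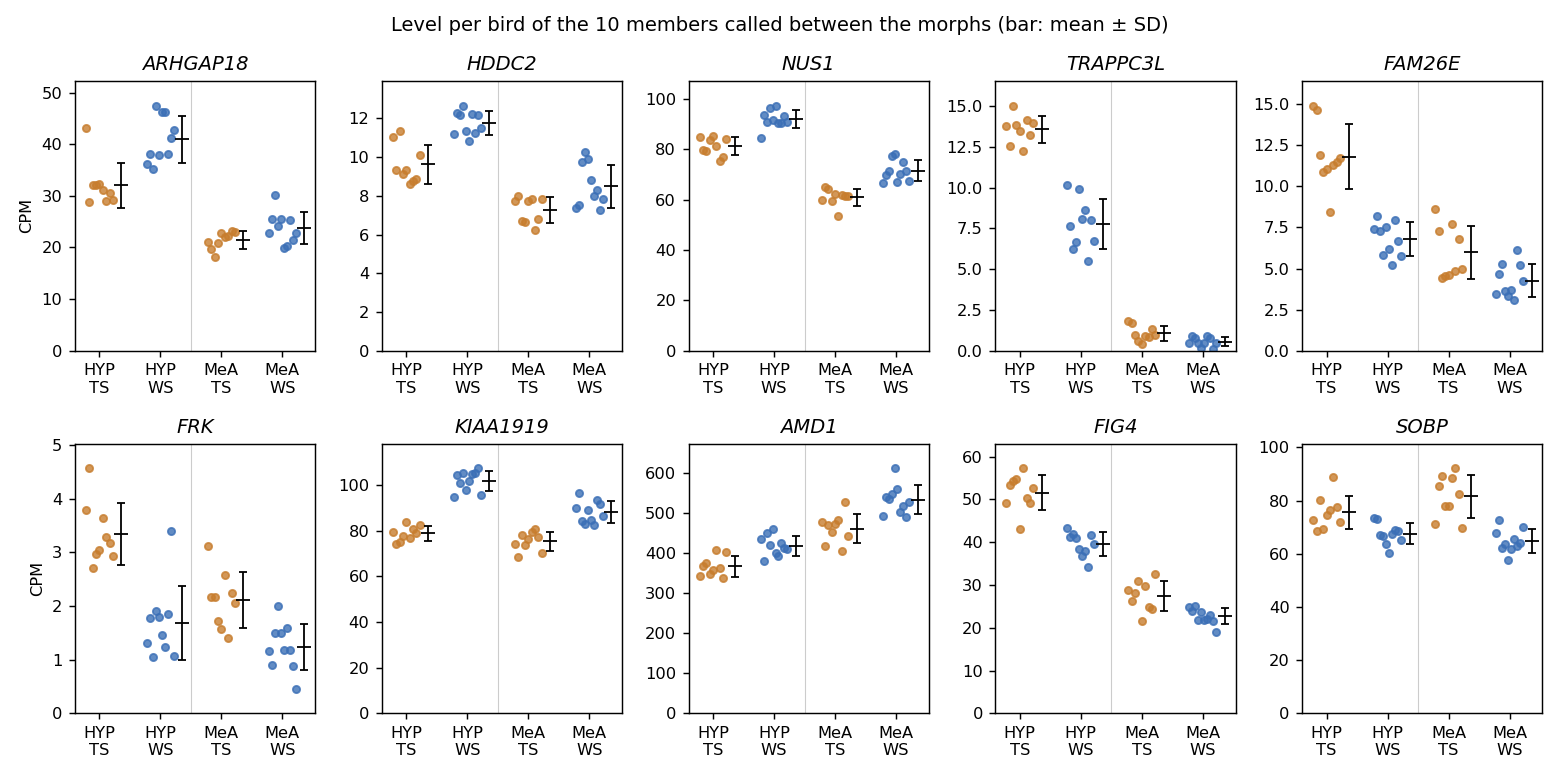
Level of the 10 genes called between the morphs in at least 1 region, in CPM scaled within each region, with 1 point per bird (TS orange, WS blue) and the mean ± SD as a bar. TRAPPC3L, FAM26E and KIAA1919 in HYP and KIAA1919 and NUS1 in MeA show no overlap between the morphs.

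KIAA1919 and NUS1 were the genes called in both regions, and both were higher in WS in each. Both regions came from the same birds. A morph by region interaction, fitted with each bird as a block, asked whether the 2 regional differences were unequal, and no gene of the list passed (0 of 50 tested by edgeR, against 0.0245% of all genes, and 0 of the 50 given an adjusted p by DESeq2, against 0.149% of all genes). At an unadjusted p under 0.05 each tool had 7 genes, against 10.5% of all genes by edgeR, and those of edgeR were LAMA4, SOBP, KIAA1919, SEC63, ENPP1, MAN1A1 and L3MBTL3. The genes called in HYP alone were therefore not shown to differ in HYP more than in MeA. For FIG4 the log2 fold change was −0.27 in MeA (edgeR adjusted p = 0.140) against −0.38 in HYP, and FRK of −0.76 (edgeR adjusted p = 0.159) against −0.97. FAM26E had −0.49 in MeA (edgeR adjusted p = 0.313) against −0.79 in HYP. Among the genes higher in WS, ARHGAP18 had 0.15 in MeA (edgeR adjusted p = 0.581) against 0.35 in HYP, AMD1 0.21 (edgeR adjusted p = 0.0780) against 0.19, and HDDC2 0.23 (edgeR adjusted p = 0.470) against 0.29.

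SOBP had the reverse order, with −0.16 in HYP and −0.33 in MeA, and an interaction of 0.17 ± 0.050 SE (edgeR adjusted p = 0.339). LAMA4, a laminin chain of vessel walls, had the lowest interaction p of the list. Its HYP mean was 42.6 ± 6.36 CPM for WS birds and 49.1 ± 5.59 CPM for TS birds, and 61.7 ± 6.93 and 55.5 ± 10.5 CPM in MeA (SD, n = 10 and 9). The interaction was −0.37 ± 0.10 SE (edgeR adjusted p = 0.305), and it was chosen for mention after its values were seen. It passed when 1 of the TS birds was left out. TRAPPC3L could not be compared in this way with much precision, since it had only 154 counts over all MeA libraries, averaging 0.549 ± 0.283 CPM for WS birds and 1.06 ± 0.476 CPM for TS birds (SD, n = 10 and 9).

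Over the list as a whole the differences went in both directions. The median log2 fold change was −0.0079 in HYP, with 24 of 50 genes above 0, and 0.0227 in MeA, with 27 of 49 above 0, beside all-gene medians of −0.0004 and 0.0011. The size of the differences, disregarding sign, had a median of 0.106 in HYP and 0.142 in MeA. Over all genes tested the same medians were 0.0545 and 0.0777, and over the tested genes of the same chromosome that do not lie among the members 0.0924 and 0.114. In HYP 9.37% of those genes were called, and in MeA 6.50%. Among the other genes that lie between the members, 1 of 39 was called in HYP and 1 of 35 in MeA, which was CEP57L1 in both. On other chromosomes 4 of 9741 genes were called in HYP and 1 of 9562 in MeA.

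Grouped by role, none of the 10 tested genes of transcription and chromatin was called between the morphs in either region. These include FOXO3, a stress-responsive factor, HDAC2, a histone deacetylase, and PRDM1, a transcriptional repressor. None of the 5 matrix and secreted genes and none of the 4 genes of nucleic acid and RNA processing was called either. The membrane traffic group gave 3 of 8 in HYP (NUS1 higher, FIG4 and TRAPPC3L lower) and 1 of 7 in MeA. The membrane proteins gave 2 of 6 in HYP and 1 of 6 in MeA. Of the 8 genes of metabolism and protein turnover, AMD1 and HDDC2 were called in HYP. Over all genes tested the shares called were 0.796% in HYP and 0.523% in MeA, and over the list 18.0% and 6.12%. Outside the 2 stretches the same chromosome had 9.37% and 6.50%. The groups hold 4 to 10 genes each apart from SOBP alone, and no test was made across them.

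Genes that act with members of the list, called or not, were also read from the whole table, wherever they lie. The WAVE, laminin and Mediator lists belong to WASF1, LAMA2, LAMA4, MED23 and CDK19. EdgeR called none of those members between the morphs. Neither PIKFYVE nor VAC14, the partners of FIG4, was called between the morphs in either region, with log2 fold changes between −0.11 and 0.003. Of the TRAPP complex, 11 subunits were tested and 0 called in each region by edgeR, with 0 at an unadjusted p under 0.05 in HYP and 1 in MeA. The same held for 7 WAVE complex genes (0 at an unadjusted p under 0.05 in either region) and 22 Mediator genes (1 in HYP and 2 in MeA). It also held for SRC, YES1 and LYN of the Src family and for CSK, a kinase outside it (0 in either). Of the laminins and their receptors, 10 were tested in HYP and 9 in MeA, none was called by edgeR, and 1 had an unadjusted p under 0.05, in HYP. The 5 other CALHM family genes in the table had too few counts to be tested. Over all genes tested, edgeR called 0.796% in HYP and 0.523% in MeA, and 7.59% and 8.85% had an unadjusted p under 0.05. At such shares few or no calls arise in lists of this size, so these counts do not set the partners apart.

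Age class entered the model in a second fit, because it moves with morph in these birds. With it, 6 genes were called in HYP, KIAA1919 and NUS1 higher and TRAPPC3L, FAM26E, FIG4 and FRK lower in WS, against 0.427% of all genes. ARHGAP18, AMD1 and HDDC2 were not, with edgeR adjusted p-values of 0.126, 0.402 and 0.0816. The log2 fold changes of ARHGAP18 (0.37 with age and 0.35 without) and HDDC2 (0.35 and 0.29) were no smaller with age in the model, whereas that of AMD1 was (0.15 and 0.19). In MeA 0 genes of the list were called with age in the model by edgeR, against 0.154% of all genes called. At an unadjusted p under 0.05 that fit had 15 genes of the list, and the share of all genes at that threshold was not counted. Within age classes the morphs could be compared only with 2 birds on one side. Among SY birds, KIAA1919 in HYP was at 95.5 to 104.2 CPM in 2 WS birds and at 74.3 to 83.8 CPM in 7 TS birds. Among ASY birds it was at 94.7 to 107.3 CPM in 8 WS birds and at 76.6 to 78.8 CPM in 2 TS birds. TRAPPC3L in HYP was at 6.72 to 7.65 CPM in WS and 12.6 to 15.0 CPM in TS among SY birds. Among ASY birds TRAPPC3L was at 5.50 to 10.2 and 12.3 to 13.2 CPM. For both genes the ranges over all birds were already separate, so separation within each class had to follow. These ranges are therefore no check on age class.

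Within regions, ASY birds were also compared with SY birds in a model that held morph. No gene of the list was called, and edgeR called 0.0% of all genes in either region. At an unadjusted p under 0.05 there were 2 genes in HYP (NR2E1 and RSPO3) and 3 in MeA (FRK, NR2E1 and PRDM1), against 4.71% and 3.58% of all genes. DESeq2 also called 0 genes of the list in either region.

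Between HYP and MeA, 42 of 50 genes of the list were called, 19 higher and 23 lower in HYP, which is 84.0% against 79.8% of all 12245 genes tested. Over all genes, 40.8% were called higher and 39.0% lower in HYP. The share that was called and differed by over 2-fold was 7 of 50, or 14.0%, against 17.4% of all genes. In the following, CPM are scaled over both regions together, and log2 fold changes are HYP over MeA.

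**Figure D3:**
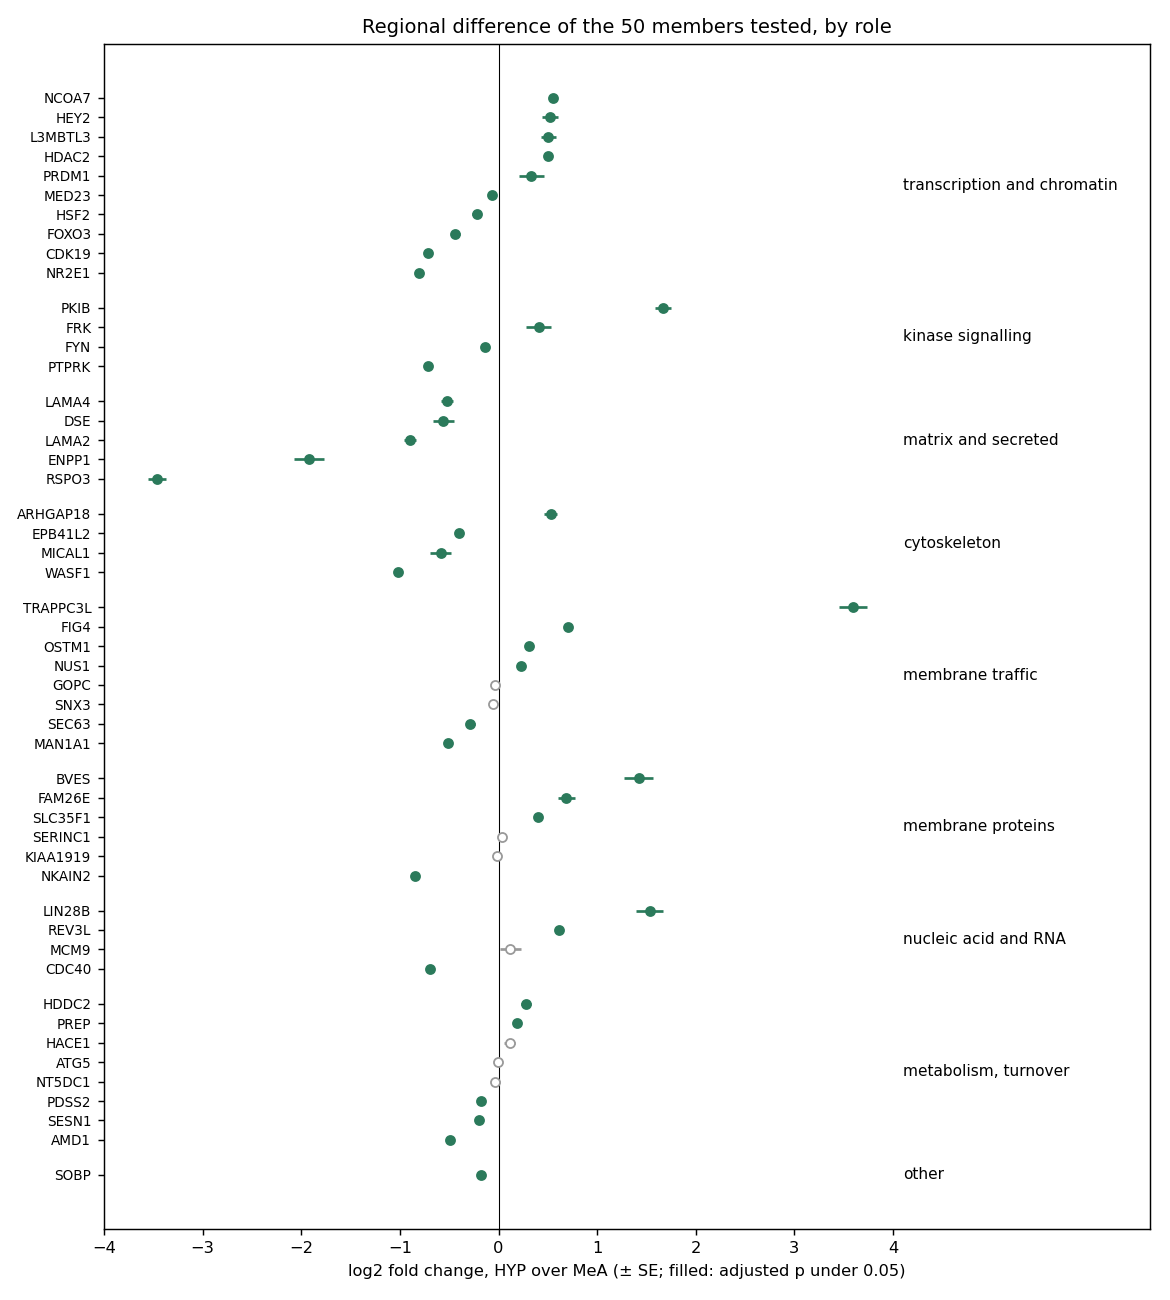
Fitted log2 fold change between the regions (HYP over MeA) of the 50 genes tested, grouped by role, with bars of 1 SE. Filled points passed an adjusted p of 0.05 (42 genes), open points did not, and all 5 matrix and secreted genes lie on the MeA side.

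The largest differences toward HYP were those of TRAPPC3L, PKIB, LIN28B and BVES. TRAPPC3L ranged from 5.22 to 14.3 CPM in HYP and from 0.117 to 1.94 CPM in MeA, with all 19 birds higher in HYP (edgeR, log2 fold change 3.59 ± 0.15 SE, adjusted p = 8.43e-17). PKIB, an inhibitor of cyclic AMP-dependent protein kinase, was at 42.7 ± 6.28 and 13.5 ± 3.36 CPM (SD, n = 19 birds, edgeR, log2 fold change 1.67 ± 0.081 SE, adjusted p = 2.67e-15). LIN28B, which blocks maturation of let-7 microRNAs, was at 3.81 ± 0.527 and 1.33 ± 0.537 CPM (log2 fold change 1.53). BVES, a cyclic AMP-binding membrane protein, was at 10.4 ± 2.47 and 4.22 ± 2.89 CPM (log2 fold change 1.42), and both genes were higher in HYP in all 19 birds. FIG4 (0.70) and FAM26E (0.69) were the next in order.

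All 5 matrix and secreted genes were lower in HYP, as were 39.0% of all genes tested. RSPO3, a secreted amplifier of Wnt signalling, ranged from 1.35 to 3.87 CPM in HYP and from 15.9 to 35.5 CPM in MeA, without overlap (edgeR, log2 fold change −3.46 ± 0.096 SE, adjusted p = 5.03e-20). ENPP1, an enzyme at the cell surface that releases pyrophosphate from nucleotides, was at 5.17 ± 0.901 and 20.4 ± 7.43 CPM (SD, n = 19 birds, log2 fold change −1.92). The laminin chain LAMA2 was at 9.58 ± 1.60 and 17.9 ± 3.31 CPM (log2 fold change −0.90). LAMA4 had a log2 fold change of −0.52 and DSE of −0.56. Vascular and meningeal markers moved with these genes, as 4 of 4 endothelial markers and 4 of 5 mural and meningeal markers tested were lower in HYP. The summed endothelial markers ran from 70.1 to 106.3 CPM in HYP and from 78.0 to 119.2 CPM in MeA, and the mural and meningeal ones from 218.2 to 314.1 and from 228.4 to 424.0 CPM, with no measured marker at a median of 0, while CLDN5, CDH5 and COL1A1 had no row in the table. Among the other laminin genes and receptors, 3 were higher and 4 lower in HYP. Astrocyte, oligodendrocyte and microglial markers were lower in HYP too, at 4 of 4, 3 of 3 and 4 of 4. Neuronal markers were mixed, with 2 higher and 3 lower in HYP. Those of ependyma and choroid plexus were also mixed, with 1 higher and 1 lower. The part of cell makeup in these regional differences was not tested.

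Of the other genes lower in HYP, WASF1, which drives actin branching in neurons as part of the WAVE complex, averaged 87.9 ± 7.10 CPM in HYP libraries and 177.5 ± 13.8 CPM in MeA libraries (SD, n = 19 birds, edgeR, log2 fold change −1.01 ± 0.032 SE, adjusted p = 8.33e-19). Of 7 other WAVE complex genes, 5 were lower and WASF3 was higher in HYP. NKAIN2, which binds the sodium pump, was at 79.8 ± 6.54 and 144.0 ± 9.97 CPM (log2 fold change −0.85). NR2E1, a nuclear receptor of neural stem cells, was at 31.0 ± 3.32 and 54.0 ± 5.76 CPM (log2 fold change −0.80). All 19 birds showed the direction of each of these differences.

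The transcription and chromatin genes divided evenly, with 5 of 10 higher in HYP (HDAC2, HEY2, L3MBTL3, NCOA7 and PRDM1) and 5 lower (CDK19, FOXO3, HSF2, MED23 and NR2E1). CDK19, a kinase of the Mediator complex, had a log2 fold change of −0.71, and MED23 of −0.06. Of 22 other Mediator genes, 7 were higher and 12 lower in HYP. Both Src-related kinases were called, FRK higher (0.41) and FYN lower (−0.14) in HYP. Of the 8 genes not called between the regions, KIAA1919 had a log2 fold change of −0.02 (SE 0.028), although it was among the genes that differed most clearly between the morphs. ATG5, a core autophagy gene, had a mean of 41.7 ± 3.13 CPM in HYP libraries and of 41.7 ± 2.90 CPM in MeA libraries (SD, n = 19 birds). The others not called were SNX3, SERINC1, GOPC, MCM9, NT5DC1 and HACE1.

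Birds also differed from one another within a morph. For each gene tested in both regions, the deviations of the 19 birds from their morph mean, on the log2(CPM + 0.5) scale, were correlated between HYP and MeA, with birds permuted within morphs. This comparison was added after the values had been seen. From here on, CPM are again scaled within each region, so levels in HYP and MeA are not on a common scale. Of 49 genes of the list, 5 passed an adjusted permutation p of 0.05, or 10.2%, against 22.8% of all 11434 genes. The median r was 0.18 in the list and 0.38 in all genes, so that the members lay below the background. The 5 were HSF2, MAN1A1, BVES, MICAL1 and SOBP. Both libraries of a bird share its age, stage and history, and the part of these in the agreement was not tested.

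HSF2, a heat shock transcription factor, ran from 50.1 over 65.5 to 90.0 CPM in HYP and from 46.8 over 68.3 to 108.9 CPM in MeA (lowest, median and highest of 19). HSF2 was not called between the morphs in either region. Its log2 fold change was 0.02 ± 0.13 SE in HYP (edgeR adjusted p = 0.989) and 0.14 ± 0.14 SE in MeA (edgeR adjusted p = 0.797). The widest gap between birds in HYP left 12 birds at up to 69.0 CPM and 7 birds, 4 WS and 3 TS, at 78.4 CPM or more. Any set of birds has a widest gap, and whether there are 2 groups was not tested. The 7 birds were also at 76.2 CPM or more in MeA, where 1 of the other 12, at 76.3 CPM, lay within their range. The widest gap in MeA lay elsewhere, between 83.9 and 92.9 CPM, with 3 birds above it. Over the 19 birds Pearson's r was 0.84 (permutation p = 3e-05, adjusted over all genes 0.00129). Spearman's rho was 0.75 (permutation p = 0.00059, adjusted 0.0107), and r was 0.80 without the 2 birds farthest from the median in HYP. Below and above the HYP gap r was 0.44 and 0.17, and for the 16 birds below the widest MeA gap it was 0.80. SERINC1, whose gene overlaps HSF2, took the most reads of the list, 384806 in HYP and 325694 in MeA.

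**Figure D4:**
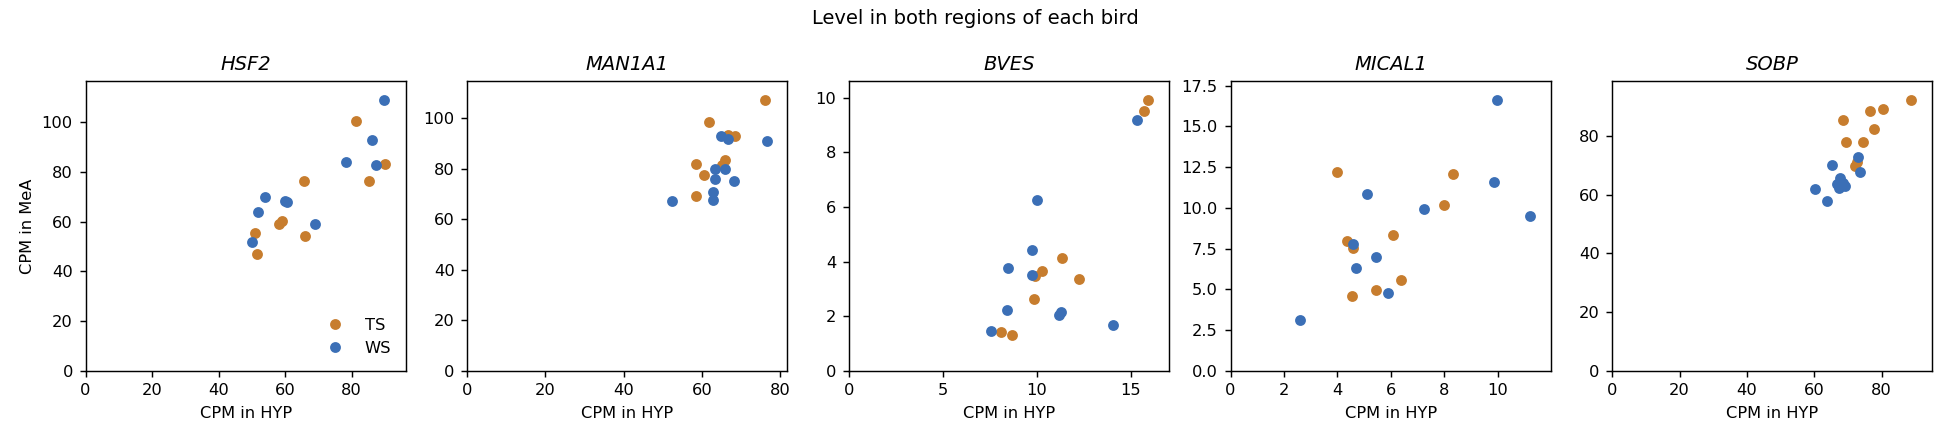
Level of each bird in HYP (horizontal, CPM) and in MeA (vertical, CPM), scaled within each region, for the 5 genes whose deviations from the morph means passed the permutation test between the regions. WS and TS birds are mixed for HSF2, MAN1A1 and BVES, while SOBP separates the morphs in MeA for most birds.

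For BVES, 3 birds stood apart from the rest in MeA. They stood at 9.92, 9.50 and 9.17 CPM there, and the next bird was at 6.26 CPM. The same birds held the top ranks in HYP, at 15.9, 15.7 and 15.3 CPM, and they comprised 2 TS birds and 1 WS bird. For the 16 birds below the gap r was 0.24. Over the 19 birds BVES passed with Pearson's r of 0.66 (permutation p = 0.00318, adjusted over all genes 0.0221). It did not pass with Spearman's rho of 0.57 (permutation p = 0.0145, adjusted 0.0686), and r was 0.47 without the 2 birds farthest from the median in HYP. MAN1A1, a mannosidase that trims N-glycans in the Golgi, ran from 52.3 to 76.5 CPM in HYP and from 67.3 to 107.2 CPM in MeA. In HYP 2 birds, 1 WS and 1 TS, lay at 76.1 CPM or more and the other 17 at up to 68.4 CPM, and among those 17 r was 0.57. Its Pearson r over the 19 birds was 0.70 (permutation p = 0.00061, adjusted over all genes 0.00794) and Spearman's rho was 0.69 (permutation p = 0.00221, adjusted 0.0226). Without the 2 birds farthest from the median in HYP, r was 0.66. For SOBP, the corresponding r was 0.61 (permutation p = 0.00878, adjusted 0.0423), rho was 0.67 (permutation p = 0.00387, adjusted 0.0314), and r was 0.53 without the 2 farthest birds. MICAL1 passed with Pearson's r of 0.64 (permutation p = 0.00642, adjusted 0.0350) but not with Spearman's rho of 0.47 (permutation p = 0.0525, adjusted 0.150), and r was 0.50 without the 2 farthest birds.

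Genes of the list with very few reads fell below the filter on low counts. ROS1, a receptor tyrosine kinase, had 17 counts over all HYP and 111 over all MeA libraries. PLN, the inhibitor of the calcium pump of heart muscle, had 102 and 23 counts, and TRDN, a protein of the muscle calcium release complex, had 124 and 72 counts. DESeq2, and edgeR without the filter on low counts, called ROS1 lower and PLN higher in HYP than in MeA. ROS1 was lower in HYP in 19 of 19 birds, and PLN was higher in HYP in 17 of 19. Neither fit called any of these genes between the morphs.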

How the data were processed

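The authors deposited raw counts of reads for each gene in each library and variance-stabilized values on an approximately log2 scale for each region. The deposited log2-scale values served in 1 alternative fit only. STAR, Novoalign, HTSeq, SAMtools, GATK and DESeq2 are named in the submitters' processing notes. Neither the build version nor the strand setting is given in the sources used here. The deposited counts are labelled as NCBI plus Zal2m. Whether reads from ZAL2m and from the standard form were counted alike was not tested. Per the labels' protocols, RNA was extracted from pooled punches of frozen sections before library preparation with a TruSeq kit. Among the columns of counts, 2 belong to a bird that is not among the samples, and these were not used.

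The test was that of edgeR 4.0.16 under R 4.3.3 (TMM normalization, filterByExpr, quasi-likelihood F test, Benjamini and Hochberg adjustment over all genes tested). DESeq2 1.42.0 and limma 3.58.1 gave alternatives. Morphs were compared within regions. The interaction and the regional comparison used all 38 libraries and a block for each bird, since the band number in the labels marks both libraries of a bird. This pairing was checked on 8925 genes, and 19 of 19 birds correlated best with their own other region (r from 0.28 to 0.546, against a highest value of 0.226 for another bird). Levels are CPM on TMM-scaled library sizes, and an SE is the size of the log2 fold change divided by the root of its F statistic. Bird deviations were tested with 100000 permutations. The models were tested on simulated data. Genes were placed with a RefSeq gene table of the assembly bZonAlb1.hap1, 53 by symbol and 3 by a later symbol. No coordinates are given, because the authors' build is not known.

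Named genes were those called between the morphs, then in each region the 3 of lowest p among the rest, then the 6 with the largest regional difference in each direction. The members and lists were chosen with earlier results of these data known.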

Additional observations from a re-analysis of the deposited data

Results flagged for a closer look

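Among 92 groups of birds examined, of the genes named by rule, 5 held a bird far from the others of its group, where chance gives about 1 in 20. ARHGAP18 in HYP was at 43.2 CPM in 1 TS bird, and the next TS bird was at 32.3 CPM. FRK in HYP was at 3.39 CPM in 1 WS bird, and the next WS bird was at 1.92 CPM. LAMA2 in MeA was at 24.6 CPM in the same TS bird as for ARHGAP18, against 17.6 CPM in the next. LIN28B in MeA was at 1.93 CPM in another TS bird, against 1.31 CPM in the next. NUS1 in MeA was at 53.4 CPM in that same bird, below the next lowest TS bird at 59.3 CPM. In each of the calls of ARHGAP18 and FRK in HYP and NUS1 in MeA, leaving out any 1 bird kept the call.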

How the results depend on the processing

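In HYP the count of 9 genes called became 5 among the birds of stage E alone (KIAA1919, NUS1, TRAPPC3L, FAM26E and FIG4), and 7 to 9 when 1 bird was left out. Over all genes tested the HYP calls also fell, from 95 in the main fit to 45 among stage E birds alone. In MeA the count of 3 became 8 under DESeq2, and 3 to 5 when 1 bird was left out, the 5 being without 1 WS bird. It became 0 once age class was added, 0 among stage E birds alone and 0 without the 4 libraries at the ends of the first principal component. Over all genes tested those fits called 18, 16 and 30, where the main fit called 61 and DESeq2 122. At an unadjusted p under 0.05 those fits had 15, 17 and 15 genes of the list, and the shares of all genes there were not counted. The interaction count was 0 to 1 when 1 bird was left out (LAMA4, without 1 TS bird), and the regional count 41 to 43. Without the replicate block, the interaction gave 0 genes of the list and the regional comparison 42, so the block changed neither count. In the morph comparisons no paired fit was possible because WS and TS are different birds. The median log2 fold change ran from −0.0232 to −0.0009 in HYP and from 0.0033 to 0.0387 in MeA when 1 bird was left out. It was 0.0057 in HYP among stage E birds alone and −0.0078 in MeA once age class was added. Both values lay outside those ranges and had the opposite sign to the main fit, though all were close to 0. The genes with shared bird deviations numbered 3 with Spearman's rho (HSF2, MAN1A1 and SOBP) and 3 without the 4 birds (HSF2, MAN1A1 and LAMA2), both chosen after seeing the data, as was leaving out the 4 libraries. The 3 without the 4 birds were 6.12% of the list against 11.8% of all genes, and with rho 17.3% of all genes passed.

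Interactions near 0 changed sign when 1 bird was left out, AMD1 to 0.0018, 0.0041 and 0.0076 (range −0.06 to 0.0076) and TRAPPC3L to −0.0154 and −0.0054 (range −0.0154 to 0.2555). Single calls in HYP lost among stage E birds alone were AMD1 (adjusted p = 0.176), ARHGAP18 (0.189), FRK (0.145) and HDDC2 (0.440). HDDC2 was also lost with no filter on low counts (0.0700) and with stage as a covariate (0.0539). KIAA1919, TRAPPC3L, FAM26E, FIG4 and NUS1 kept their HYP calls in all 27 alternatives. With age in the model the MeA adjusted p-values were 0.109 for SOBP, 0.117 for KIAA1919 and 0.134 for NUS1, with log2 fold changes of −0.31, 0.23 and 0.24 beside −0.33, 0.23 and 0.23 without it. The causes of these changes were not tested. The 12 named regional differences kept direction and call in each alternative run. Depth limited TRAPPC3L in MeA, which had 154 counts over 19 libraries.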
